A study of Mus musculus with 6 samples.

Results

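The 10 genes described here carry out antigen presentation by major histocompatibility complex (MHC) class I in the mouse. They were listed by name for their known roles, by a rule with no threshold on a measured value: the heavy chains H2-K1 and H2-D1, their light chain B2m, the peptide transporter subunits Tap1 and Tap2, the loading factor Tapbp, the immunoproteasome subunits Psmb8, Psmb9 and Psmb10, and the activator Nlrc5. All 10 were found among the 55471 Ensembl gene identifiers measured. PolyA RNA of endosteal mesenchymal stromal cells, which line the inner bone surface, was sequenced from mice of the C57BL/6J strain. The genotype Bap1fl/fl gave 3 libraries, which carry the label Bap1 WT, and Prx1-cre;Bap1fl/fl gave 3, which carry the label Bap1 cKO. Both groups carry the floxed Bap1 allele, and the cKO group also carries Cre recombinase under Prx1, a promoter of limb mesenchyme. Bap1 encodes a deubiquitinase of histone H2A. The labels give n = 3 per genotype without stating whether each is another animal, so the p-values reflect the spread among these samples alone, which may be technical.

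Class I molecules show short peptides from inside the cell to CD8 T cells. The proteasome cuts proteins into peptides, and the immunoproteasome is the form in which Psmb8, Psmb9 and Psmb10 take the places of Psmb5, Psmb6 and Psmb7. Tap1 and Tap2 form the pump that moves the peptides into the endoplasmic reticulum, and tapasin (Tapbp) holds the empty class I molecule at the pump until a peptide is bound. Nlrc5 is the transactivator of class I promoters, and interferon gamma is the classical inducer of the whole set. Mesenchymal stromal cells are known for class I on their surface and for little or no class II until they meet interferon gamma.

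Values are RPKM, fragments per kilobase of gene scaled to sequencing depth, which allows levels to be compared between genes. Depth estimated from the steps between low values was 12.95 to 22.15 M fragments per library, and 3 fragments per effective kilobase, the floor used here for counting error alone, corresponded to 0.135 to 0.232 RPKM. Bap1 itself was at 22.8, 22.72 and 24.01 RPKM in WT and 28.27, 25.16 and 22.99 in cKO (limma adjusted p = 0.29). A sum over the whole gene cannot show loss of the floxed exons, so the genotypes below are those of the labels. The libraries differed widely. Of 12 stromal markers 11 were tested, and 8 were lower and 1 higher in cKO. Of all genes tested, 26.5% were lower and 34.7% higher. Thy1 and Eng reached the mean of 1 RPKM needed for testing through the WT libraries alone. Pdgfra was higher, at 6.86 to 8.31 RPKM in WT and 9.72 to 19.56 in cKO. Prrx1 (68.16 to 83.75 against 39.46 to 72.24) and Twist1 (16.11 to 17.74 against 14.86 to 15.87) did not pass. The 12 markers summed to 2348 to 2499 RPKM in WT, mostly Col1a1, Col1a2 and Cxcl12, and to 153 to 240 in cKO. Lepr did not exceed 0.14 RPKM in any library. Among 10 epithelial markers, Pax8, a kidney and thyroid transcription factor, was at 0.12 to 0.21 RPKM in WT and 124 to 243 in cKO, while Epcam did not exceed 0.29. The summed level of the epithelial markers was 12.8 to 15 RPKM in WT and 130 to 247 in cKO, nearly all of it Pax8 in cKO. The keratin Krt19 went the other way, with 13.28, 11.73 and 13.73 RPKM in WT and 1.67, 1.74 and 5.79 in cKO, Krt8 was at 0.66 to 0.79 in WT and at 0 in cKO, and Cldn4 was at 0 in all libraries. With most stromal markers this much lower, the labelled cell type of the cKO libraries is in doubt, and each difference below is between libraries as labelled. The part of these marker differences in the results below was not tested, and in bulk RNA fewer cells of a type and less RNA per cell cannot be told apart. The 12 leukocyte markers summed to 1.4 to 2.09 RPKM in WT and 1.13 to 1.98 in cKO, with Laptm5, Cd3e, Cd52 and Tyrobp at 0 in all 6 libraries. Endothelial markers summed to at most 0.84 RPKM, with Tie1 at 0 in every library, and erythroid markers to at most 2.76, with Hba-a2 at 0 in every library.

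The members did not move as one block. H2-K1 was higher in the libraries labelled cKO, B2m, Tap1, Tap2, Psmb8 and Psmb9 were lower by several-fold, H2-D1, Tapbp and Psmb10 were lower by less than 1.5-fold, and Nlrc5 did not exceed 0.33 RPKM in any library. In the test across all genes (limma on log2(RPKM + 1), 12223 genes averaging 1 RPKM or more over the libraries), 9 members were tested, 8 were lower, 1 was higher, and the groups did not overlap in any of the 9. These counts stand beside a large background. Of all genes tested, 61.2% passed at an adjusted p under 0.05 (34.7% higher and 26.5% lower), and the groups did not overlap in 69.0% (39.2% with cKO higher and 29.8% with cKO lower). The median log2 difference was −1.32 over the 9 members and 0.09 over all genes tested. Psmb8 and Psmb9 reached the minimum mean through the WT libraries alone, so the counts and the median describe the set and support nothing further.

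**Figure D1:**
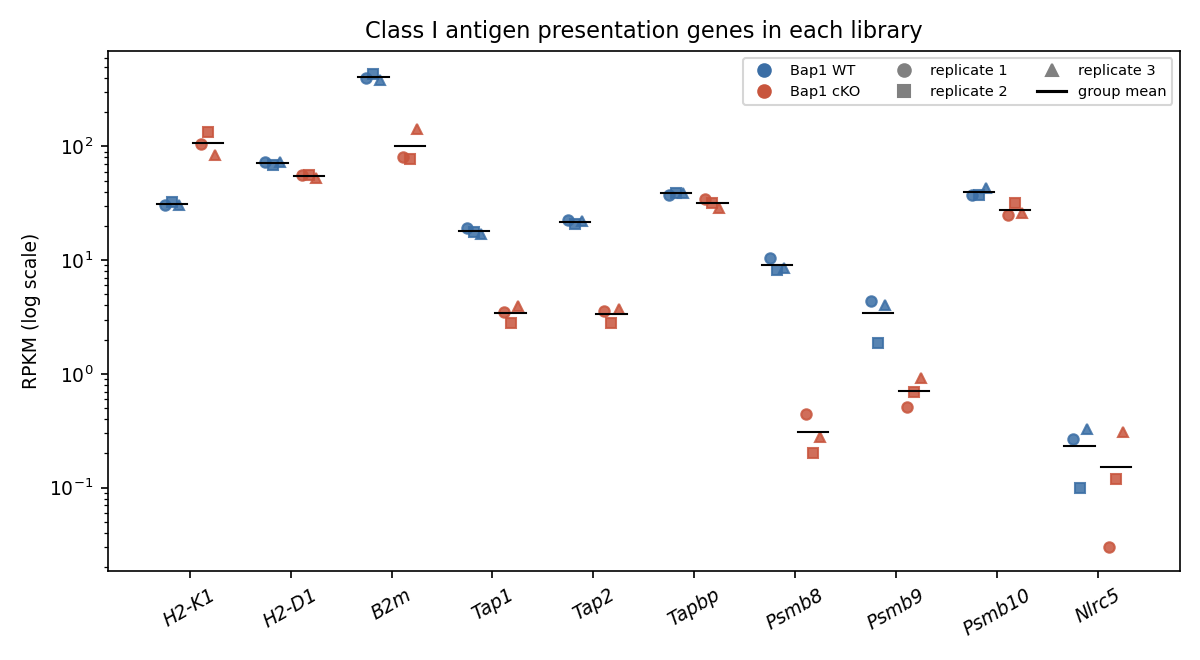
RPKM of the 10 members in each library on a log axis; blue marks Bap1 WT, red Bap1 cKO, symbols the replicates and short lines the group means (n = 3). H2-K1 is the member whose red points lie above the blue ones, and Nlrc5 the one whose groups overlap.

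The order of the levels changed with the groups. In the WT libraries B2m stood first, followed by H2-D1, by Psmb10 and Tapbp, whose values overlapped, and then by H2-K1, Tap2, Tap1, Psmb8, Psmb9 and Nlrc5, each clear of the next. In the cKO libraries H2-K1 and B2m overlapped at the top, H2-D1 came next, Tapbp overlapped with Psmb10 and Tap1 with Tap2, and Psmb8 overlapped with Nlrc5 at the bottom, below Psmb9.

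H2-K1 and H2-D1 encode the classical heavy chains, the part of the molecule that holds the peptide. H2-K1 (chromosome 17, 33996017 to 34000347, minus strand, GRCm38) had 30.47, 32.73 and 30.8 RPKM in WT replicates 1 to 3, and 105.39, 134.51 and 84.18 in those of cKO. Every cKO library was thus above every WT library, and the mean rose 3.45-fold from 31.3 ± 1.22 to 108 ± 25.3 RPKM (SD, n = 3 in each group, as throughout). On the log2(RPKM + 1) scale the difference was 1.73 ± 0.16 (SE), and the p adjusted by Benjamini-Hochberg in limma was 0.000204. H2-D1 (chromosome 17, 35262730 to 35267499, plus strand) was at 72.7, 68.98 and 73.68 RPKM in WT and 56.69, 55.94 and 52.54 in cKO. It was lower in each cKO library, 1.3-fold in the mean, with a log2 difference of −0.38 ± 0.07 and a limma adjusted p of 0.00318. The heavy chains therefore exchanged places. H2-K1 made up 29.5, 32.2 and 29.5% of the summed RPKM of both in WT and 65, 70.6 and 61.6% in cKO, a share chosen after its values were seen. The sum itself was 103 ± 1.39 RPKM in WT and 163 ± 26.9 in cKO.

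Class I genes are near copies of each other, so fragments could have been divided wrongly between them. Of the 4377 different 151-base windows (the read length) in annotated H2-K1 transcripts, 0 occur in a transcript of another gene, and of 2591 windows of H2-D1 34 do, in H2-Q1, which was at 0 RPKM in every library. For the other 8 members 0 windows were shared. Windows with a mismatch and matches on the opposite strand were not searched.

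The promoters of these heavy chains are shown because the genes differ in direction while this stretch is nearly the same in both. In RefSeq's promoter windows, H2-K1 and H2-D1 are given below from the kappaB element to the inverted CCAAT box, and B2m from its interferon-stimulated response element to its inverted CCAAT box. Capitals mark, in order along the heavy chain sequences, the kappaB consensus, the interferon regulatory factor core (AANNGAAA, here on the other strand), the core of the X2 box (TGACG) and the Y box (CCAAT, here on the other strand). In B2m the first capitals mark the full response element (GAAA, any 2 bases, GAAA, which contains the shorter core), followed by the kappaB consensus, X2 and Y.
H2-K1, chr17:34000357-34000460, minus strand: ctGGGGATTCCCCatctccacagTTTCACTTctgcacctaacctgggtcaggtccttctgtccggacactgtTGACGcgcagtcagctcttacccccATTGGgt
H2-D1, chr17:35262921-35263024, plus strand: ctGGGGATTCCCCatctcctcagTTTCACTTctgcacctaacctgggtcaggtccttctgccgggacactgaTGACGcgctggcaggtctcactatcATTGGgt
B2m, chr2:122147546-122147640, plus strand: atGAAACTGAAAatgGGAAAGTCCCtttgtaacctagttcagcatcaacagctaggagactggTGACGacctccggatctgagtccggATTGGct
Of the 104 bases in the heavy chain stretches, 93 (89.4%) were the same without a gap. All 4 marked elements stood in both, in the same order and at the same spacing. The build is GRCm38.p6. The H2-K1 stretch ends 10 bases before the RefSeq start and that of H2-D1 70 bases before it, and GENCODE lists an alternative H2-D1 transcript that begins further upstream. Among 32851 mouse promoter windows of 250 bases, 7.25% held the kappaB consensus on either strand, 2.98% the full response element, 21.3% the shorter core, 17.8% the X2 core and 33.8% the CCAAT box. A match is a run of letters and not evidence of binding.

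B2m, the light chain that every class I molecule needs to reach the surface, was the most abundant member in WT. B2m (chromosome 2, 122147686 to 122153083, plus strand) had 403.59, 430.28 and 386.15 RPKM in WT, and 80.61, 77.56 and 142.24 in cKO. All cKO values were below all WT values, with cKO replicate 3 the highest of its group. The mean fell 4.06-fold from 407 ± 22.2 to 100 ± 36.5 RPKM, a log2 difference of −2.07 ± 0.23 (limma adjusted p = 0.00038). Patl2, on the opposite strand across the whole of B2m, was at 0 in every library.

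B2m RNA thus fell while the summed RPKM of H2-K1 and H2-D1 rose. Of these heavy chains H2-K1 was higher, and H2-D1, like B2m, was lower. Per RPKM of H2-K1 and H2-D1 together there were 3.91, 4.23 and 3.7 RPKM of B2m in WT, against 0.497, 0.407 and 1.04 in cKO. The log2 ratio differed by −2.73, with the groups apart, and the exact permutation test gave 0.1 (2-sided), the smallest p that 3 against 3 libraries allow. Adjusted over the 4 ratios tested here (exact permutation, Benjamini-Hochberg) it was 0.133.

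**Figure D2:**
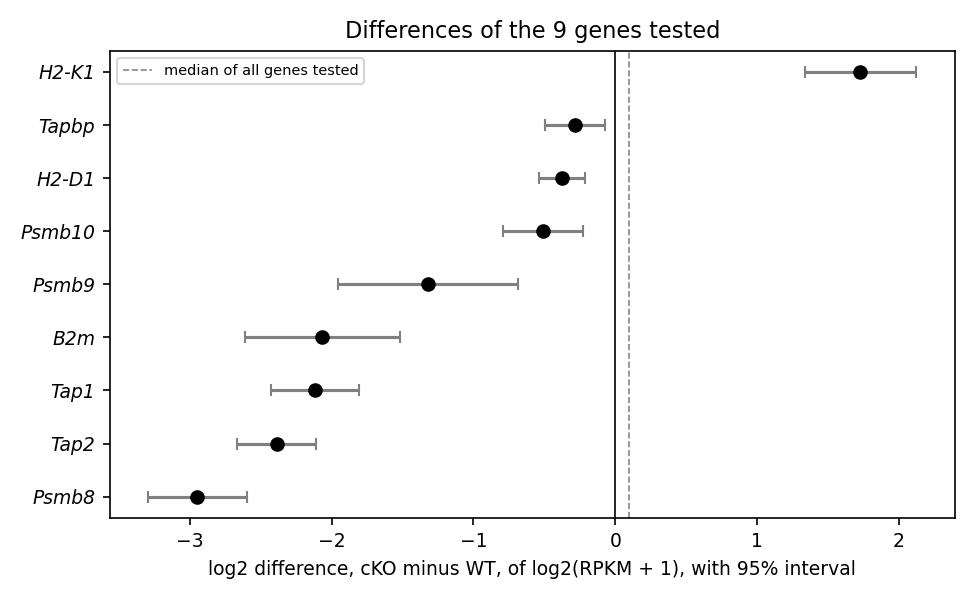
Log2 difference (cKO minus WT, log2(RPKM + 1) scale) of the 9 members tested, with limma's 95% confidence interval; the dashed line is the median of all genes tested, 0.09. The intervals of 8 members lie below 0 and that of H2-K1 lies above it.

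The transporter subunits fell together and by similar amounts. Tap1 (chromosome 17, 34187553 to 34197225, plus strand) was at 19.29, 17.74 and 16.98 RPKM in WT and 3.49, 2.78 and 3.93 in cKO, 5.3-fold lower (log2 difference −2.12 ± 0.13, limma adjusted p = 3.68e-05). Tap2 (chromosome 17, 34203527 to 34216321, plus strand) was at 22.78, 20.66 and 22.14 RPKM in WT and 3.59, 2.82 and 3.74 in cKO, 6.46-fold lower (−2.39 ± 0.12, limma adjusted p = 1.57e-05). In both, the cKO libraries lay close together and far below WT. The RPKM of Tap1 per RPKM of Tap2 was 0.847, 0.859 and 0.767 in WT and 0.972, 0.986 and 1.05 in cKO.

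Tapasin behaved otherwise. Tapbp (chromosome 17, 33915899 to 33929292, plus strand) was at 37.72, 38.96 and 39.16 RPKM in WT and 34.26, 32.01 and 28.52 in cKO, 1.22-fold lower in the mean. Its log2 difference of −0.28 ± 0.09 had a limma adjusted p of 0.0277, and the call was lost when any WT library or cKO replicate 2 was left out (0.051 to 0.0912). Its annotated span overlaps that of Zbtb22 on the same strand by 3422 bases, and Zbtb22 was at 17.2 to 18.4 RPKM in WT and 17.1 to 23.9 in cKO. Of 3949 windows of 151 bases in annotated Tapbp transcripts 0 occur in a transcript of another gene. The overlap is therefore one of spans and not of transcript sequence at read length. The antisense gene Gm19412 overlaps it by 1207 bases and was at 1.71 to 3 RPKM.

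The immunoproteasome subunits differed among themselves. Psmb8 (LMP7; chromosome 17, 34197721 to 34201454, plus strand) was at 10.41, 8.28 and 8.56 RPKM in WT and 0.44, 0.2 and 0.28 in cKO. The cKO values were near the worth of 3 fragments per effective kilobase, 0.2 in cKO replicate 2 being below it, so no fold is given. The log2 difference was −2.95 ± 0.14 (limma adjusted p = 1.63e-05). Psmb9 (LMP2; chromosome 17, 34181987 to 34187764, minus strand) was at 4.35, 1.88 and 4 RPKM in WT and 0.51, 0.7 and 0.93 in cKO. WT replicate 2 was low for its group and still above every cKO library, and the mean fell 4.78-fold (−1.32 ± 0.26, limma adjusted p = 0.00492). Psmb10 (MECL-1; chromosome 8, 105935735 to 105938444, minus strand) was at 37.16, 37.78 and 43.24 RPKM in WT and 24.9, 31.78 and 25.81 in cKO, 1.43-fold lower (−0.51 ± 0.12, limma adjusted p = 0.00912). Psmb10 was the most abundant of these subunits in every library.

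Psmb9 and Tap1 start back to back on opposite strands, and the stretch between their RefSeq starts is shown because both fell. It is 225 bases long and is written on the Tap1 strand, with the Psmb9 start just before its first base and the Tap1 start just after its last; capitals mark a CCAAT box and the X2 core.
Tap1 and Psmb9, chr17:34187331-34187555, plus strand: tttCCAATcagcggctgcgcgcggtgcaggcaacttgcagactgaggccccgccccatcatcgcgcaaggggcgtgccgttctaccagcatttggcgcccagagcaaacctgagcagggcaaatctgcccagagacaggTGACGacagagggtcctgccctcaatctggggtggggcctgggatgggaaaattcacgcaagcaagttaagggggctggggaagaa
The kappaB consensus, the full response element and its shorter core were not among the letters of the 250-base Tap1 and Psmb9 windows. In GENCODE, alternative transcripts let the annotated genes overlap by 212 bases, and the sources used here do not say whether counting used the strand. Promoter windows were found for 8 of the 10 members; Tap2 and Nlrc5 had none.

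The constitutive partners were measured beside the immunoproteasome subunits. Psmb5, the partner of Psmb8, was at 211 ± 6.46 RPKM in WT and 188 ± 15.3 in cKO (log2 difference −0.17, 95% interval −0.35 to 0.01, limma adjusted p = 0.0925), and it passed without cKO replicate 2 (0.0269) and with median-of-ratios scaling (0.0179), within a range over the alternatives of 0.0179 to 0.41. Psmb6, the partner of Psmb9, was at 255 ± 15.6 RPKM in WT and 272 ± 16.2 in cKO (0.09, interval −0.09 to 0.28, limma adjusted p = 0.318), with a difference of −0.32 when each chromosome was centred (0.0111, in a range of 0.0111 to 0.943). Psmb7, the partner of Psmb10, fell 1.34-fold from 214 ± 3.71 to 160 ± 0.99 RPKM (limma adjusted p = 0.000721). Psmb8 stood at 4.94, 4.03 and 3.92% of the RPKM of Psmb5 in WT and at 0.239% or less in each cKO library; no size is given for that drop, since Psmb8 was under the floor in cKO replicate 2. Psmb9 stood at 1.64, 0.793 and 1.52% of Psmb6 in WT and at 0.184, 0.245 and 0.366% in cKO. In both ratios the groups were apart. The log2 ratio of Psmb9 to Psmb6 differed by −2.30, and for both ratios the exact permutation test gave p = 0.1, or 0.133 adjusted over the 4 ratios. Psmb10 stood at 17.1, 18 and 20.1% of Psmb7 in WT and at 15.5, 19.9 and 16.2% in cKO. Those groups overlapped, and the log2 ratio differed by −0.10 (exact permutation p = 0.5).

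**Figure D3:**
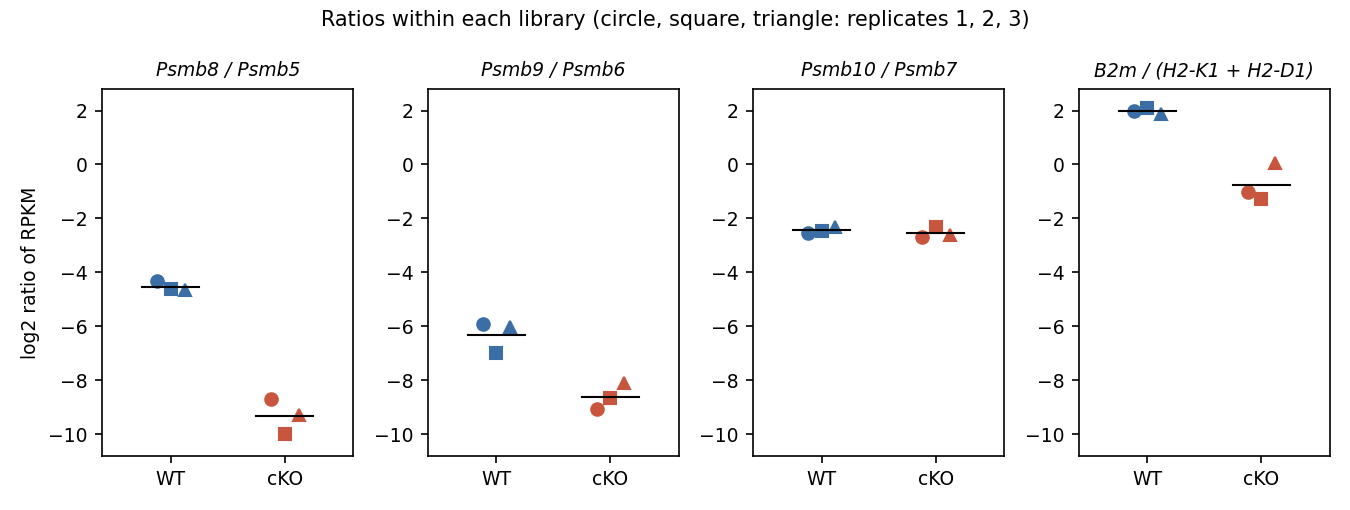
Log2 ratio of RPKM within each library for the 3 immunoproteasome subunits over their constitutive partners and for B2m over both heavy chains; symbols are replicates and lines are means (n = 3). The Psmb8 point of cKO replicate 2 rests on a value under the floor; the groups are apart in the Psmb8, Psmb9 and B2m panels and overlap in the Psmb10 panel.

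Nlrc5 (chromosome 8, 94434356 to 94527272, plus strand) did not reach the minimum for the test. It was at 0.27, 0.1 and 0.33 RPKM in WT and 0.03, 0.12 and 0.31 in cKO. The groups overlapped. WT replicate 2 and cKO replicates 1 and 2 were below the floor, which was 0.23, 0.232 and 0.21 RPKM in these libraries. At such levels the overlap does not show that the groups are alike. Without a minimum the log2 difference was −0.10 ± 0.11 (limma adjusted p = 0.533).

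The rest of the class I pathway was read from lists of 118 other genes, of which 79 were tested. Of these 18 were higher and 27 lower, 57% in all, which is near the 61.2% of all genes tested. The median log2 difference of the 79 was −0.14. H2-Q4 and Irf8 reached the minimum mean through the cKO libraries alone, and Isg15 and Ifit2 through the WT libraries alone, so a difference was built into their selection and the counts of their lists describe only.

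Other class I chains changed in both directions. Of 19 listed, 8 were tested, 2 were higher and 5 lower, against 34.7% and 26.5% of all genes tested, with a median of −0.78. H2-T23 (Qa-1, which engages the inhibitory NKG2A receptor of natural killer cells) was at 11.49, 13.42 and 12.23 RPKM in WT and 18.46, 18.7 and 29.79 in cKO, higher in every cKO library (1.8-fold, limma adjusted p = 0.0121). H2-Q4 was at 0.04, 0.05 and 0.16 RPKM in WT and 2.58, 2.73 and 2.88 in cKO (limma adjusted p = 9.64e-05). H2-M3, which presents N-formylated peptides, fell 3.61-fold (limma adjusted p = 0.000853), and H2-T22, a ligand of some gamma delta T cells, was 1.32-fold lower (0.0116), a call that missed the threshold without WT replicate 1 (0.051). Fcgrt, the neonatal Fc receptor, which also pairs with B2m, fell 2.94-fold (0.000509). Mr1, which presents vitamin B metabolites, stood at 7.17 to 8.46 RPKM in WT and at 1.62, 0.7 and 6.08 in cKO; it was 2.86-fold lower with all libraries and 6.9-fold lower without cKO replicate 3, and its call (0.0335) was lost when any other single library was left out (0.0703 to 0.0969). Hfe, an iron regulator of class I form, was 2.38-fold lower (0.0191) and 3.78-fold lower without cKO replicate 2, with the call lost without WT replicate 1 or 3 or cKO replicate 1 (0.0591 to 0.0658). H2-T23, Mr1 and Hfe were chosen after their values were seen.

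Factors of peptide loading changed in both directions. Of 9 loading chaperones 4 were lower and 1 higher, against 26.5% and 34.7% of all genes tested, with a median of −0.20. Nothing is read from that count or from those of the lists that follow. Calreticulin (Calr) fell 1.5-fold from 762 ± 39.1 to 507 ± 20.9 RPKM (limma adjusted p = 0.000395), and Pdia3, the disulfide isomerase of the loading complex, fell 1.45-fold from 459 ± 20.9 to 316 ± 34.4 RPKM (0.00224). Uggt1, which checks the folding of glycoproteins, was 1.32-fold lower (0.0108, and 0.0546 with each chromosome centred), and Sec61a1, a channel subunit, 1.23-fold lower (0.013, and 0.583 with each chromosome centred; 0.0566 without WT replicate 3). Tapbpl, a tapasin relative that edits peptides, was 1.46-fold higher (0.0227), a call lost when any 1 library other than cKO replicate 3 was left out (0.0566 to 0.0786); it was chosen after its values were seen. Erap1, which trims peptides and was also chosen after its values were seen, was at 9.15 ± 1.3 RPKM in WT and 9.43 ± 1.77 in cKO. Of 6 cytosolic peptidases 3 were higher and 0 lower, against 34.7% and 26.5% of all genes tested, with a median of 0.32. Npepps rose 2.6-fold (limma adjusted p = 0.000438), and its log2 difference of 1.33 was 0.91 with each chromosome centred. The calls of Blmh and Nrdc, 1.4-fold and 1.54-fold higher, were lost with each chromosome centred (0.682 and 0.425), and that of Nrdc also without WT replicate 1 or 3 or cKO replicate 1 (0.0906 to 0.1).

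Genes of the proteasome itself also changed in both directions. Of 11 structural subunits of the core, 3 were higher and 4 lower, against 34.7% and 26.5% of all genes tested, with a median of 0.03. Psma6 rose 2.36-fold (limma adjusted p = 1.31e-05) and Psma7 fell 1.72-fold (0.000137), while Psmb2 was 1.54-fold lower (0.000409) and Psma1 1.61-fold higher, the call of Psma1 being lost with each chromosome centred (0.597). The log2 difference of Psma6, 1.23, was 0.66 with each chromosome centred, and that of Psmb2, −0.62, was −1.06. Of 9 activators and assembly factors 1 was higher and 3 lower, against the same shares of all genes tested, with a median of −0.14. The interferon-inducible activator PA28 consists of Psme1 and Psme2. Psme2 was 1.3-fold lower (65.7 ± 5.35 against 85.4 ± 2.53 RPKM, limma adjusted p = 0.00629), and Psme1, chosen after its values were seen, was at 51.1 ± 1.58 RPKM in WT and 46.5 ± 6.13 in cKO (0.27; 0.0329 without cKO replicate 2, in a range of 0.0329 to 0.536). Psme3, which forms another, nuclear activator, rose 2.31-fold (1.89e-05), and its log2 difference of 1.19 was 0.77 with each chromosome centred.

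**Figure D4:**
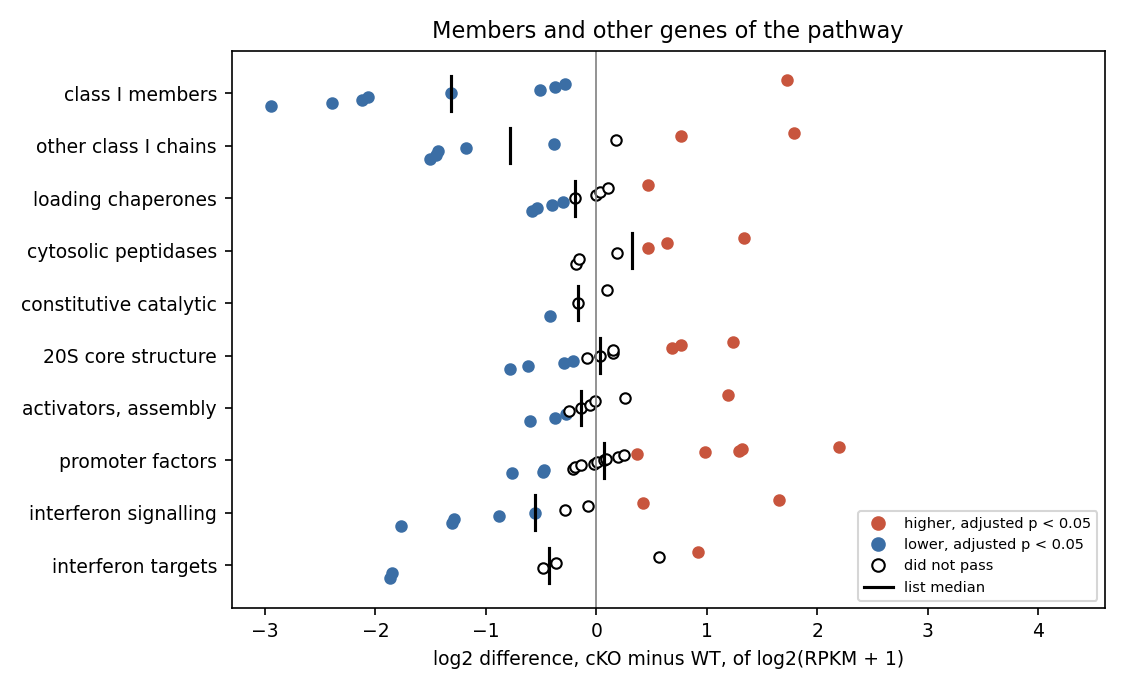
Log2 difference (cKO minus WT, log2(RPKM + 1) scale) of each gene tested, by list; filled points passed at an adjusted p under 0.05, open points did not, and bars are list medians. The class I members have a median of −1.32, and the lists of promoter factors and proteasome core lie on both sides of 0.

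Upstream of the class I promoters, the interferon receptors were lower and the promoter factors were mixed. Of 9 tested genes of interferon signalling 5 were lower and 2 higher, against 26.5% and 34.7% of all genes tested, with a median of −0.55. Ifngr1, the ligand-binding chain of the interferon gamma receptor, was at 59.52, 59.53 and 60.75 RPKM in WT and 13.98, 14.68 and 23.52 in cKO, 3.45-fold lower (limma adjusted p = 0.000336). Its partner Ifngr2 was 2.68-fold lower (0.00163), Ifnar2 of the type I receptor 2.54-fold lower (0.000587), Ifnar1 1.51-fold lower (0.0028) and the receptor kinase Jak1 1.87-fold lower (7.3e-05). The groups did not overlap in any of these 5 genes, against 69.0% of all genes tested, and the 5 were named for their p or after their values were seen, so nothing is read from that count. Socs3, a feedback inhibitor of cytokine receptors, rose 3.47-fold (0.000351), and its log2 difference of 1.65 was 1.23 with each chromosome centred. Interferon gamma (Ifng) was at 0 in every library, and Ifnb1 was above 0 in WT replicate 2 alone, at 0.27 RPKM. Among the other receptor kinases listed, Tyk2 was 1.4-fold higher (limma adjusted p = 0.0316) and Jak2 did not pass (0.281). Ifngr2, Ifnar1, Tyk2 and Jak2 were chosen after their values were seen, and the alternatives are not given for Tyk2 and Jak2.

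Among 17 factors that act at class I promoters 5 were higher and 3 lower, against 34.7% and 26.5% of all genes tested, with a median of 0.07. Rfx5, the X box factor with which Nlrc5 works, was at 5.09, 8.3 and 5.73 RPKM in WT and 19.33, 15.34 and 16.66 in cKO (2.68-fold higher, limma adjusted p = 0.000948). Nfyc of the Y box complex rose 2.04-fold (0.0004), and the NF-kappaB subunit Relb rose 2.87-fold (0.00069). With each chromosome centred, the log2 difference of Nfyc was 0.54 instead of 0.98, and that of Relb 0.65 instead of 1.29. Among other subunits of the Rfx5 and Nfyc complexes, Rfxap was 1.42-fold lower (limma adjusted p = 0.00661). Rfxank (0.509), Nfya (0.321) and Nfyb (0.613) did not pass. These subunits were chosen after their values were seen, and the alternatives are not given for them. Irf8, a transcription factor known from myeloid cells, was listed at 0 throughout WT, against 3.72, 4.49 and 2.74 RPKM in cKO (0.000115). Irf1, an interferon-induced activator of class I genes that was chosen after its values were seen, was 1.74-fold lower (0.00508).

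Of 21 other interferon-inducible genes 6 were tested, 2 were lower and 1 higher, against 26.5% and 34.7% of all genes tested. Ifit2 fell 8.66-fold (4.42 ± 0.585 to 0.51 ± 0.234 RPKM, limma adjusted p = 0.000194), and Isg15 went from 2.66 ± 0.375 RPKM to 0 in every cKO library (0.000106). Ifi35 rose 1.99-fold (0.0029), and Irgm1 was at 19.7 ± 1.43 RPKM in WT and 14.2 ± 4.83 in cKO (0.0922; 0.00224 without cKO replicate 3, in a range of 0.00224 to 0.222). The log2 difference of Ifi35, 0.92, was 0.50 with each chromosome centred. Class II genes were low in both groups. Their activator Ciita did not exceed 0.05 RPKM and the invariant chain Cd74 did not exceed 0.51, and H2-DMa, with at most 2.21 RPKM, was the 1 member of 10 tested (limma adjusted p = 0.403).

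Of the members 7 lie in the MHC on chromosome 17, and Psmb9, Tap1, Psmb8 and Tap2 follow each other without another tested gene between them. All 4 were lower. On one side the nearest tested gene, H2-DMa, did not pass (log2 difference −0.28), and Brd2 beyond it was higher by 0.29 (limma adjusted p = 0.0128); on the other side the nearest, Gpsm3, was lower by −2.13 (0.000131). Gpsm3 reached the minimum mean through the WT libraries alone, so a difference was built into its selection. H2-DMa, Brd2 and Gpsm3 were named for their position. Between the lowest coordinates of H2-K1 and H2-D1, over 1.27 megabases, 49 genes were tested, of which 20 were higher and 8 lower (57.1% called). Without the 6 members among them, 43 genes were tested, 19 were higher and 3 lower (51.2%), with a median log2 difference of 0.28. Among those called, C4b, Slc44a4, Gm10501 and Atp6v1g2 reached the minimum mean through the cKO libraries alone. Gpsm3 and Ager did so through the WT libraries alone, so these counts describe only. Across chromosome 17, 199 of 611 genes tested were higher and 129 lower (53.7%), with a median of 0.15. With each chromosome centred on its median, 14 of the 49 were higher and 9 lower. H2-K1, Tap1, Tap2, Psmb8, Psmb9 and H2-D1 kept their calls and directions with each chromosome centred. B2m on chromosome 2 and Psmb10 on chromosome 8 did so as well, on chromosomes whose genes had medians of −0.11 and −0.06. Shifts were larger on some other chromosomes. With centring the log2 difference of Relb on chromosome 7 went from 1.29 to 0.65 and that of Fcgrt from −1.45 to −2.09. On chromosome 4 Nfyc went from 0.98 to 0.54 and Jak1 from −0.88 to −1.32. How much of each difference is shared by its chromosome was not tested.

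**Figure D5:**
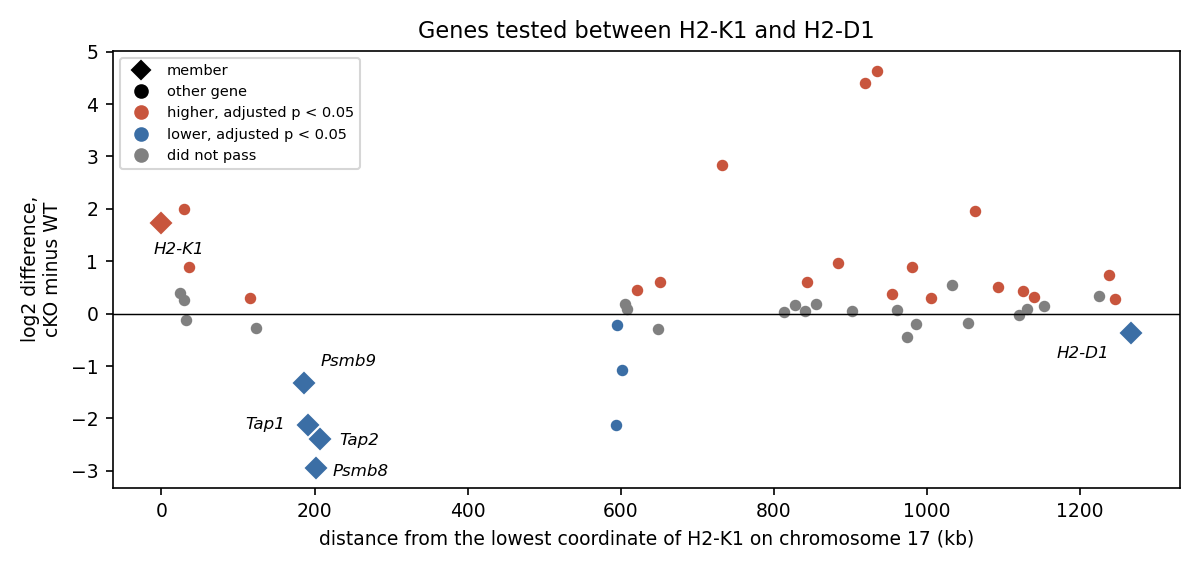
Log2 difference (cKO minus WT) of the 49 genes tested between H2-K1 and H2-D1, against distance in kb from the lowest coordinate of H2-K1; diamonds are members and circles other genes, red higher, blue lower and grey not past the test. Psmb9, Tap1, Psmb8 and Tap2 form the low group near 200 kb, and most other coloured circles are red.

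Genes whose 6 centred log2(RPKM + 1) values lay closest to the mean centred profile of the 9 tested members were Slc48a1, Mcfd2, Mrtfa, Ubqln2 and Ankrd40, with root mean square distances of 0.024 to 0.042. The members' profile was 0.63, 0.49 and 0.59 in WT and −0.59, −0.60 and −0.53 in cKO. Slc48a1, the closest, was at 90.2, 84.2 and 89 RPKM in WT and 39.1, 37.5 and 41.4 in cKO. These genes were picked for this likeness, over 6 libraries, and carry no test. Since H2-K1 goes against the other members, the mean profile describes no single one of them.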

How the data were processed

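The authors deposited RPKM for 55471 Ensembl gene identifiers in 6 libraries, with no library pooled. Per the labels' protocols, RNA was taken up in TRIzol and made into stranded mRNA libraries read as 151-base pairs. Tools named in the submitters' processing notes were RSEM 1.3.1, STAR 2.7.1a and cutadapt 2.8, with build GRCm38; the annotation version and the use of strand in counting are not given in the sources used here. Symbols and coordinates come from GENCODE M21 (GRCm38), which held 55230 of the identifiers, and promoter sequences from RefSeq (GRCm38.p6).

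Differences were tested 2-sided with limma 3.58.1 under R 4.3.3, fitting a variance trend to log2(RPKM + 1) of all genes averaging 1 RPKM or more, with genotype as the only term and Benjamini-Hochberg adjustment over all 12223 genes. Ratios were compared by exact permutation over libraries. Fold changes are ratios of mean RPKM. The depth was set where low values fell closest to whole fragments. These values came from genes with 1 annotated transcript, of 800 to 3500 bp (less 150 bp). At that depth 80.1 to 92.8% of them lay within 0.2 of a whole fragment. The depth was picked for this closeness, so the share is not a separate check of it. The procedure was tested in 10 simulations with independent noise and 200 changed genes each. Far more genes were called in the data, so the simulations do not show how the calls behave here. The members and gene lists were chosen with earlier results of these data known. Genes named are the members, their constitutive partners, up to 4 genes per list with the smallest p and the 5 of most similar profile; markers, genes given as at or near 0, neighbours and overlapping genes, and those said to be chosen after their values were seen fall outside this. Alternatives were a pseudocount of 0.1, no minimum or 5 RPKM, median-of-ratios or quantile scaling, a robust prior, sample weights, a replicate block, centring of each chromosome, and leaving out each library; for named genes other than members they were added after seeing the data. Tables and plots were made with matplotlib 3.10.9, scipy 1.17.1, pandas 2.3.3 and numpy 2.4.6 under Python 3.11.15.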

Additional observations from a re-analysis of the deposited data

How the results depend on the processing

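The 9 tested members kept their direction under all alternatives, and 128 of 133 values also kept their side of the threshold. The other 5 were all Tapbp, which passed neither with the replicate block (limma adjusted p = 0.0743, log2 difference −0.28) nor without any one WT library or cKO replicate 2, over a range of adjusted p from 0.00612 to 0.0912. With the minimum at 5 RPKM 7 members were tested and 7 called. Whether the replicate numbers pair the samples is not known. Correlations of deviations were −0.017, 0.051 and −0.019 within a number and −0.043 to 0.049 between numbers. All are near 0, so they cannot decide it. With the replicate block 6749 genes and 8 members were called, against 7476 and 9 without it. With that pairing the ratio tests of Psmb8, Psmb9 and B2m gave an exact permutation p of 0.25, the smallest that 3 pairs allow. The log2 ratio of B2m to its heavy chains ranged from −3.13 to −2.45 when 1 library was left out. Without cKO replicate 3, 8106 genes were called. Of 668 values for other named genes, 620 stayed the same, 38 lost and 7 gained a call, and 3 changed sign: Psmb6, to −0.0074 with median-of-ratios scaling and −0.32 with each chromosome centred, and Thop1, to −0.0098 with each chromosome centred; the cause was not tested. Among these, Psmg1 lost its call in 9 of the alternatives. Values of Psmb8 in cKO rest on few fragments.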
